A study of Rattus norvegicus with 8 samples.

Results

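The genes described here are 10 chaperones, co-chaperones and regulators of the endoplasmic reticulum (ER): Hspa5, Hsp90b1, Hyou1, Dnajb11, Dnajb9, Dnajc3, Sdf2l1, Manf, Pdia4 and Xbp1. They were chosen by name, and each had at least 1 non-control probe carrying its symbol on the array, among 14931 genes tested in all, 10401 of them with a symbol. All 10 passed the filter on dim probes, since their probes were well above background in all 8 samples, and no spot of theirs was saturated.

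The RNA was liver RNA of 8 Wistar rat pups, each 21 days old. The 4 control pups were born to dams on standard food, and the 4 deficient pups to dams on food without vitamin B12 and folates, called MDD (methyl donor deficiency) in the labels. The diets began 1 month before pregnancy and lasted until weaning, so the pups were exposed through the mother. No transgene or other agent was used. The controls were 1 male and 3 females, the deficient pups 2 males and 2 females. The labels name neither dam nor litter. The titles carry codes of a letter and a number whose meaning is not stated, and 3 controls share one letter and 2 deficient pups another. These 2 deficient pups, animals 2 and 4, are also the 2 deficient males. Each p-value therefore rests on the spread among these pups, some of which may be littermates.

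Secreted and membrane proteins fold inside the ER. Hspa5 (BiP), an ATP-driven chaperone, holds unfolded chains there, J-domain proteins deliver the chains to it, Hyou1 recharges it, and disulfide isomerases pair cysteines. When unfolded chains accumulate, the sensors Ern1, Eif2ak3 and Atf6 start the unfolded protein response, in which ATF6 and spliced XBP1 bind short promoter elements, the ER stress response elements ERSE and ERSE-II, and raise the chaperone genes. Hepatocytes have a dense ER because they make most plasma proteins.

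The promoter elements themselves are shown first. The genes were chosen by name and function, and 6 of the 10 held ERSE or ERSE-II. Since the response that acts through these elements is known to raise chaperone genes, the matches are not independent of that choice. RefSeq promoter windows of build GRCr8, 250 bases before to 50 after a gene's first base, were found for 9 of the 10 genes, Manf being the one without an entry. Motifs were searched on both strands. ERSE (CCAAT and CCACG with 9 bases of any kind between them) occurred in 4 of the 9 windows, and in 21 of all 27457 windows, or 0.0765%. ERSE-II (ATTGG and CCACG with 1 base of any kind between them) occurred in 2 of the 9 windows and in 15 of all windows, or 0.0546%. The stretches below hold every match with 20 bases on each side, cut at the gene's first base, and run 5′ to 3′ on the gene's strand. Capitals mark the fixed letters of ERSE or ERSE-II, or of their reverse complement.
Hspa5: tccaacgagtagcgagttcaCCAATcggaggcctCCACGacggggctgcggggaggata
Hsp90b1: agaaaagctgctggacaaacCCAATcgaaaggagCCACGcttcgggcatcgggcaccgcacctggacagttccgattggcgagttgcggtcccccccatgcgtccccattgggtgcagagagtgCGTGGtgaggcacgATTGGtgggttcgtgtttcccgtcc
Dnajc3: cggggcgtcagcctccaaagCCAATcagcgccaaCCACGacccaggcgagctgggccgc
Xbp1: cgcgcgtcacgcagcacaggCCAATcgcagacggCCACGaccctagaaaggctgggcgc
Hyou1: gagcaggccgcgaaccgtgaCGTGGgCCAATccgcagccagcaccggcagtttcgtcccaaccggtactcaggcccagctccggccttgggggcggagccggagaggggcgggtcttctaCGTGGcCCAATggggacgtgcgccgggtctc
Dnajb11: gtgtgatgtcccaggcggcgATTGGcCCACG

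In GRCr8 these stretches lie at chr3:38452953-38453011 (plus strand) for Hspa5, chr7:23012327-23012489 (minus) for Hsp90b1, chr15:102432514-102432572 (plus) for Dnajc3 and chr14:84604538-84604596 (plus) for Xbp1. That of Hyou1 lies at chr8:53602674-53602824 (plus) and that of Dnajb11 at chr11:91672800-91672830 (minus). With the gene's first base counted as 0, the ERSE of Hspa5 began at -43, that of Xbp1 at -65 and that of Dnajc3 at -133. Hsp90b1 held 2 copies, at -176 and, on the other strand, at -72. Hyou1 held 2 copies of ERSE-II on the other strand, at -188 and -88, and the single one of Dnajb11 began at -10 and ended on the first base. Another motif, TGACGTGG (UPRE, bound by XBP1), occurred in Hyou1 alone of the 9, overlapping its first ERSE-II, and in 0.637% of all windows. The core CCACG, which is the end of both ERSE motifs, occurred in all 9 windows and in 32.5% of all windows. TGACGTCA (CRE) and the ATF4 composite site TGATGNAAN occurred in 0 of the 9 windows, and in 1.91% and 3.8% of all windows. Dnajb9, Sdf2l1 and Pdia4 had the core only. A match is a description of the letters and not a measured binding site, and no binding was measured in these livers.

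**Figure D1:**
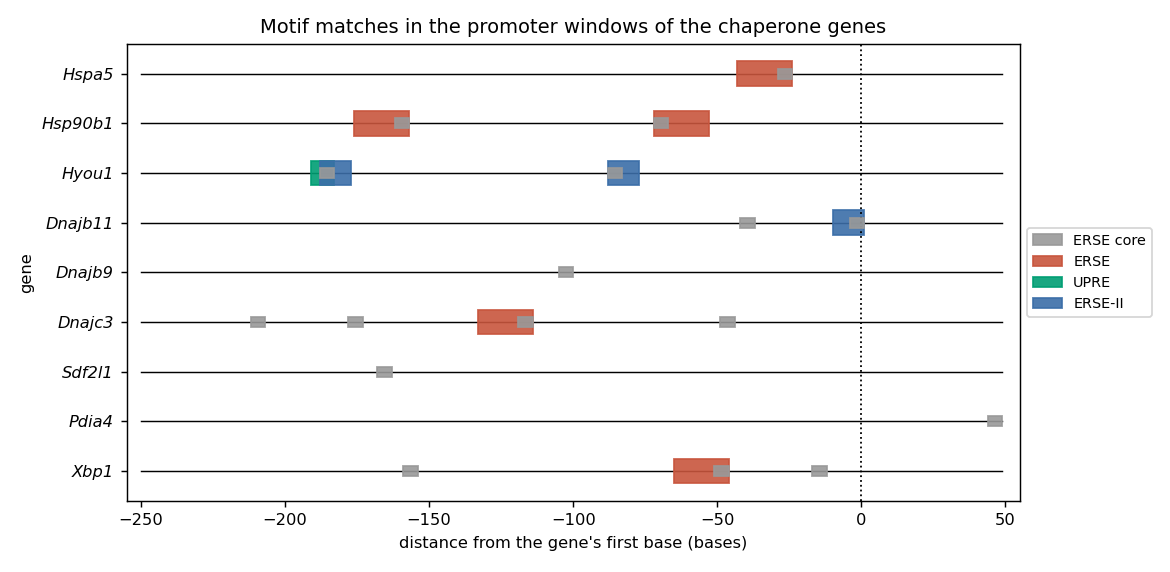
Positions of motif matches in the promoter windows of 9 of the genes; the horizontal axis is the distance from the gene's first base in bases, and each coloured block is 1 match on either strand. ERSE (4 genes) and ERSE-II (2 genes) lie before or at the first base, and Dnajb9, Sdf2l1 and Pdia4 hold the core only.

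Transcripts of these genes were on the whole lower in livers of deficient pups. The fitted difference was below 0 for all 10 genes, with a median of -0.38 on the log2 scale against 0.00946 over all genes tested, and 4 of the 10 fell at a limma adjusted p under 0.05: Hspa5, Dnajb11, Manf and Xbp1. None rose by limma, also at an unadjusted p under 0.05, where 7 were lower, against 14.8% of all genes lower and 12.8% higher at that threshold. Of all 14931 genes 6.58% were called lower and 4.53% higher, and of the 3733 brightest genes 11.6% were called lower. In 6 of the 10 genes the measured deficient animals all lay below the measured controls, among them Dnajc3 by less than the second decimal and Xbp1 in 3 animals of each group, without a dropped spot that would make its groups overlap. Deficient animals lay below controls in the same way for 5.99% of all genes and 10.8% of the 3733 brightest, while 5.5% of all genes were apart the other way. These shares are given as background, since the genes were chosen with earlier results of these data known.

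Values below are normalized log2 signals, so that a difference of 1 is a doubling of signal, in controls 1 to 4 and then deficient animals 1 to 4; the level of one probe cannot be set against that of another. The difference is deficient minus control from a fit that also holds the dye and treats animals on 1 array as a block, with its SE over 4 animals in each group unless stated. The animal numbers only name the animals.

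The central chaperone, Hspa5, was lower in every deficient liver. It measured 14.87, 15.17, 14.88 and 14.97 in the controls and 14.54, 14.49, 14.72 and 14.63 in the deficient animals. The groups did not overlap, deficient animal 3 lying nearest to the controls and control 2 highest. Hspa5 fell by 23.1%, a log2 difference of -0.378 ± 0.087 (limma adjusted p = 0.0296).

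Hsp90b1 (Grp94), the Hsp90 of the ER, measured 13.44, 13.24, 13.20 and 13.32 in the controls and 13.23, 12.54, 13.29 and 12.97 in the deficient animals. Deficient animals 1 and 3 lay within the control range and animal 2 well below it, so the groups overlapped. Its difference of -0.291 ± 0.137 did not pass the test (limma adjusted p = 0.209).

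Hyou1 (Grp170), a large Hsp70 relative that exchanges nucleotide on Hspa5, measured 12.01, 12.09, 11.97 and 12.05 in the controls and 12.21, 11.24, 11.60 and 11.51 in the deficient animals. The controls lay within a narrow band, 3 deficient animals lay below it, and deficient animal 1 lay above it. The difference of -0.391 ± 0.161 did not pass the test (limma adjusted p = 0.155). Without deficient animal 1 it was -0.63 (limma adjusted p = 0.00609), and that of Hsp90b1 was -0.44 (limma adjusted p = 0.0451), both then called. That animal was singled out after its values were seen. Over the 24 alternatives described below, the difference ran from -0.66 to -0.13 for Hyou1 and from -0.49 to 0.03 for Hsp90b1. Each of these 2 genes was called in 2 of the 24.

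Among the J-domain co-chaperones, Dnajb11, which works on chains bound by Hspa5, had the smallest p of the 10 genes. It was measured by 10 spots on each array, whose mean was 11.04, 11.15, 11.13 and 11.24 in the controls and 10.51, 10.64, 10.84 and 10.85 in the deficient animals. The groups were apart by 0.19, and Dnajb11 fell by 25.8%, a log2 difference of -0.43 ± 0.071 (limma adjusted p = 0.0087). The other 9 genes were each measured by 1 spot per probe.

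Dnajc3 (p58IPK), a co-chaperone that also binds the kinase Eif2ak3, measured 12.72, 12.82, 12.81 and 12.96 in the controls and 12.17, 12.72, 12.58 and 12.55 in the deficient animals. Deficient animal 2 and control 1 were level to 2 decimals, with the groups otherwise apart. Its difference of -0.321 ± 0.098 missed the threshold (limma adjusted p = 0.0712).

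Dnajb9, a co-chaperone that keeps the sensor Ern1 bound to Hspa5, measured 8.70, 9.41, 8.74 and 9.24 in the controls and 8.39, 8.91, 8.93 and 9.02 in the deficient animals. The controls themselves split into a lower and a higher pair, and 3 deficient animals lay between these pairs. Its difference of -0.21 ± 0.145 did not pass the test (limma adjusted p = 0.389).

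The largest differences belonged to a pair of small ER proteins that act beside Hspa5. Manf, which is retained in the ER, binds Hspa5 and can be secreted under stress, measured 12.53, 12.78, 12.43 and 12.67 in the controls and 11.75, 11.82, 12.39 and 11.91 in the deficient animals. Deficient animal 3 lay close to the controls and the others well below them, and the groups were apart by 0.04. Manf fell by 35.6%, a log2 difference of -0.634 ± 0.126 (limma adjusted p = 0.0173).

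Sdf2l1, a partner of Dnajb11, was measured by 2 probes. The brighter one gave 11.79, 12.24, 11.87 and 11.91 in the controls and 11.53, 10.87, 11.75 and 11.32 in the deficient animals, and missed the threshold at -0.586 ± 0.165 (limma adjusted p = 0.0557). The dimmer one gave 11.15, 11.78, 11.22 and 11.30 against 10.64, 9.93, 11.10 and 10.75. On both probes every deficient animal lay below every control, animal 2 lowest and animal 3 nearest to the controls. Tested among all 16729 probes, the dimmer probe was called at -0.757 ± 0.196 (limma adjusted p = 0.0435) and the brighter one was not (limma adjusted p = 0.0559).

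Pdia4, a disulfide isomerase, was highest in deficient animal 1, as Hyou1 was, and lowest in deficient animal 3. It measured 9.90, 10.51, 10.39 and 10.27 in the controls and 10.82, 10.02, 9.63 and 10.39 in the deficient animals, the latter spanning the whole control range on both sides. Its difference of -0.052 ± 0.174 did not pass the test (limma adjusted p = 0.873).

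Xbp1, the transcription factor of the Ern1 arm, was measured in 3 animals of each group, because the software marked its spot on 1 array as an outlier in both dyes. In the remaining animals it measured 12.49, 12.30 and 12.25 in controls 1 to 3 and 11.99, 11.92 and 11.78 in deficient animals 1, 3 and 4. These groups did not overlap, and Xbp1 fell by 24.4%, a log2 difference of -0.404 ± 0.096 (limma adjusted p = 0.0455). With the marked spot kept, control 4 was at 11.60, below every deficient animal, and deficient animal 2 at 11.81; the difference was then -0.29 and the call was lost (limma adjusted p = 0.156). The probe gives the level of the transcript, and its splicing was not analysed here.

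**Figure D2:**
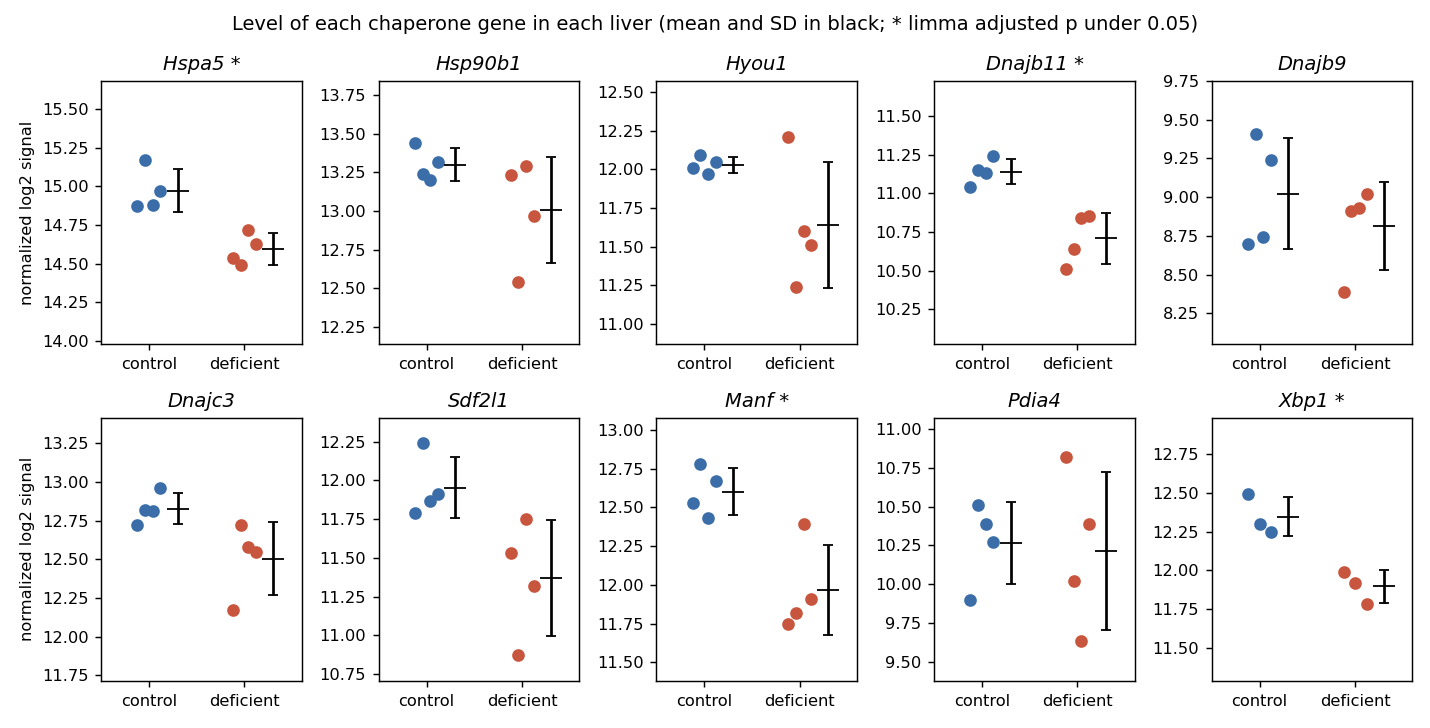
Normalized log2 signal (vertical axis) of each gene in each liver, controls in blue and deficient in red, 1 point per animal (n = 4 in each group, n = 3 for Xbp1); black bars are the mean and SD, every panel spans the same height, and asterisks mark genes with a limma adjusted p under 0.05. The groups are apart for Hspa5, Dnajb11, Manf, Xbp1 and Sdf2l1, just touch for Dnajc3, and overlap for Hsp90b1, Hyou1, Dnajb9 and Pdia4.

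Each array carried 1 control and 1 deficient animal, which gives a ratio free of differences between arrays but not of sex. Only array 2 paired animals of the same sex, both female. Array 1 set a deficient female against a control male, and arrays 3 and 4 deficient males against control females. On arrays 1, 3 and 4 the ratio holds sex as well as diet, and the part of each was not tested. The 2 deficient males, on arrays 3 and 4, also share a title letter. The median log2 ratio over the genes measured was -0.15 on array 1 (deficient animal 3 against control 1), -0.34 on array 2 (deficient 1, control 3), -0.45 on array 3 (deficient 4, control 2) and -0.61 on array 4 (deficient 2, control 4). The median over all genes tested lay between -0.008 and 0.012 on these arrays. Of the 10 genes 9 were lower on array 1, 7 on array 2 and 10 on array 3, and on array 4 this held for all 9 that were measured. Array 2 thus held 3 of the 4 ratios above 0, those of Hsp90b1 (0.03), Hyou1 (0.24) and Pdia4 (0.42), and it also had the widest ratios over all genes, with an SD of 0.573 against 0.312 to 0.42 on the other arrays. The fourth was that of Dnajb9 on array 1 (0.22). Deficient RNA carried Cy3 on the odd-numbered arrays and Cy5 on the others, and the median of the genes was below 0 in both orientations.

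**Figure D3:**
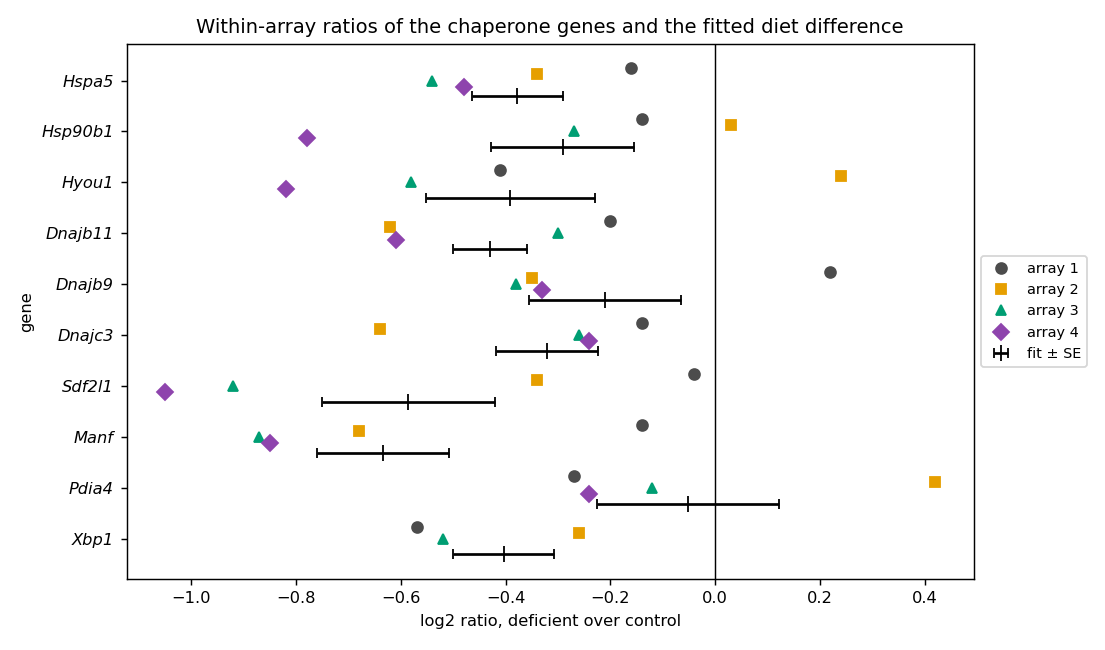
Log2 ratio of deficient over control (horizontal axis) for each gene on each of the 4 arrays (symbols), with the fitted diet difference and its SE in black below them. Most symbols lie left of 0; those to the right are Hsp90b1, Hyou1 and Pdia4 on array 2 and Dnajb9 on array 1.

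The calls depended on single animals and on the model, while the direction did not for most genes. With 1 animal left out, between 0 and 6 of the 10 genes were called: 2 without control 1, 1 each without control 2, control 4 or deficient 4, 0 without control 3, 4 without deficient 3, 5 without deficient 2 and 6 without deficient 1. Only Dnajb11 was called without control 2, control 4 or deficient 4, and only Dnajb11 and Manf without control 1. Xbp1 lost its call without deficient 1 or 3 or array 1, Hspa5 without array 2 or 4, and Manf without array 2. Without array 3, 0 were called by limma, with 4 at an unadjusted p under 0.05. With the array not in the fit as a block, 0 were called, with 6 at an unadjusted p under 0.05. Over all 24 alternatives Dnajb11 kept its call in 19, Manf in 15, Hspa5 in 11 and Xbp1 in 8, and the differences of these genes were below 0 in each. With sex in the fit Dnajb11 and Manf were called, whereas Hspa5 was at -0.34 (limma adjusted p = 0.0769) and Xbp1 at -0.40 (limma adjusted p = 0.111).

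The genes varied together across the 8 animals only in part once diet was set aside. Over the 45 pairs of genes the median Pearson r was 0.61 across the 8 animals, which share 4 arrays, and 0.11 after each diet group's mean was removed. In the second case r was positive in 26 pairs and ran from -0.89 to 0.80. Hspa5 tracked Manf (r = 0.95), Sdf2l1 (0.91) and Dnajb11 (0.90) over the 8 animals, and its r with Pdia4 was 0.06. With the diet means removed its r was 0.80 with Manf, 0.79 with Sdf2l1 and 0.70 with Dnajb9. It was then 0.54 with Dnajb11, 0.31 with Hsp90b1, 0.11 with Hyou1 and Dnajc3, 0 with Pdia4 and -0.32 with Xbp1. Outside the 10 genes, those with the values most like Hspa5 over the 8 animals were Fcmr (r = 0.972), Fdx1 (0.967), Gm2a (0.966), Slc43a1 (0.963), Ptprn (0.96) and Ceacam1 (0.959), none of which encodes an ER chaperone. With the diet means removed they were Ifi35 (0.971), Dnaja4 (0.946), Zfp691 (0.926), Phf7 (0.917), Cope (0.916) and Map1lc3b (0.915). These correlations describe 8 animals and were picked as the highest of many.

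Of 12 sensors and transcription factors of the unfolded protein response, a list that leaves out Xbp1, 0 were called by limma, with 2 lower and 1 higher at an unadjusted p under 0.05, and the median was 0. Atf6, the sensor that becomes a transcription factor after cleavage, was at 0.42 ± 0.15 (limma adjusted p = 0.123), its relative Atf6b at -0.34 ± 0.11 (limma adjusted p = 0.0942), and Nfyb and Nfya, subunits of the factor that binds the CCAAT part of ERSE, at -0.31 ± 0.10 and 0.09 ± 0.07 (limma adjusted p = 0.0979 and 0.481). Of 17 targets of the Eif2ak3 (PERK) and ATF4 arm, 6 rose and 2 fell, with a median of 0.28, the opposite sign to that of the chaperones. Of all genes 4.53% rose and 6.58% fell at the same threshold. Fgf21 rose by 2.31 ± 0.28, Atf3 by 1.33 ± 0.17 and Pck2 by 0.98 ± 0.13, and Psat1 fell by 1.16. Ddit3 (CHOP), Trib3 and Nupr1 were the other genes that rose, and Shmt2 the other that fell. Asns (0.28 ± 0.16) and Chac1 (-0.07 ± 0.11) were among the targets not called. The number that rose was 3 without array 3, between 5 and 7 with 1 animal left out, and 1 at the lowest over all 24 alternatives.

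Other ER genes fell in part. Of 99 genes in 6 lists of other ER functions 16 fell and 3 rose, with a median of -0.16. Thus 16.2% were called lower, against 40% of the 10 chaperones, 6.58% of all genes and 11.6% of the 3733 brightest. Of 14 genes of disulfide formation 4 fell, Pdia6 (-0.76 ± 0.19), Erp29 (-0.60 ± 0.12), Pdia3 (-0.59 ± 0.12) and the oxidase Ero1b (-0.48 ± 0.08), and none rose, also at an unadjusted p under 0.05 in limma. Of 22 genes of translocation into the ER and signal peptide removal 5 fell and none rose, led by the translocon partner Tram1 (-1 ± 0.2), the signal peptidase subunit Spcs3 (-0.66 ± 0.13), the receptor of the signal recognition particle Srpra (-0.57 ± 0.12) and Ssr3 (-0.39 ± 0.10). The fifth was the channel subunit Sec61a1 (-0.44 ± 0.12), named after its value was seen.

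The list of 19 other chaperones and co-chaperones also holds genes that are not chaperones, Mcfd2 among them. Of these 19 genes 3 fell, Mcfd2 (-0.68 ± 0.12), Creld2 (-0.59 ± 0.15) and Hspa13 (-0.56 ± 0.13). In the same list 2 rose, the prolyl isomerase Fkbp11 (0.54 ± 0.10) and Creld1 (0.30 ± 0.08), the last named after its value was seen. Of 19 genes of ER-associated degradation 3 fell, Rnf5 (-0.65 ± 0.17), the retrotranslocation adaptor Sel1l (-0.54 ± 0.12) and Ubxn4 (-0.40 ± 0.09), and Selenos rose (0.37 ± 0.08). Of 20 genes of glycan assembly and transfer only Rpn1 passed the test (-0.64 ± 0.13). None of 5 lectin chaperone genes was called by limma, with 2 lower at an unadjusted p under 0.05, Calr (-0.47 ± 0.15, limma adjusted p = 0.0862) and the glucosidase subunit Ganab (-0.30 ± 0.10, limma adjusted p = 0.0871). Canx, which was not among these, was at -0.11 ± 0.10. The number of these 99 genes called was 19 in all, 0 without control 3 or array 3, 1 without deficient 4, 2 without control 2, 5 without array 2, 6 without control 1, 12 without control 4 and 33 without deficient 2.

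Chaperones of other compartments served for comparison. Of 27 cytosolic chaperones 2 fell, Fkbp4 (-0.70 ± 0.12) and Dnaja1 (-0.54 ± 0.12), the small heat shock protein Hspb1 rose (1.28 ± 0.20), and the median was -0.08. Of 14 mitochondrial chaperones and proteases only Clpx passed the test (-0.59 ± 0.13), and the median was 0.03; Hspa9, the mitochondrial counterpart of Hspa5, was at 0.42 ± 0.12 (limma adjusted p = 0.0575). The shares that fell, 7.41% of the cytosolic and 7.14% of the mitochondrial list, lay near the 6.58% of all genes. The difference between these lists and the ER chaperones was not tested. Transcripts of secreted plasma proteins, the load of the hepatocyte ER, had a median of -0.65: 17 of 25 fell, among them Cp (-1.05 ± 0.08), Vtn (-0.89 ± 0.11) and Fgb (-0.74 ± 0.08), and Apoa2 rose (1.86 ± 0.14). Of the 3733 brightest genes 11.6% fell. Without array 3, 2 of the 25 fell, with 1 animal left out between 9 and 19, and at the lowest over all 24 alternatives 1.

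**Figure D4:**
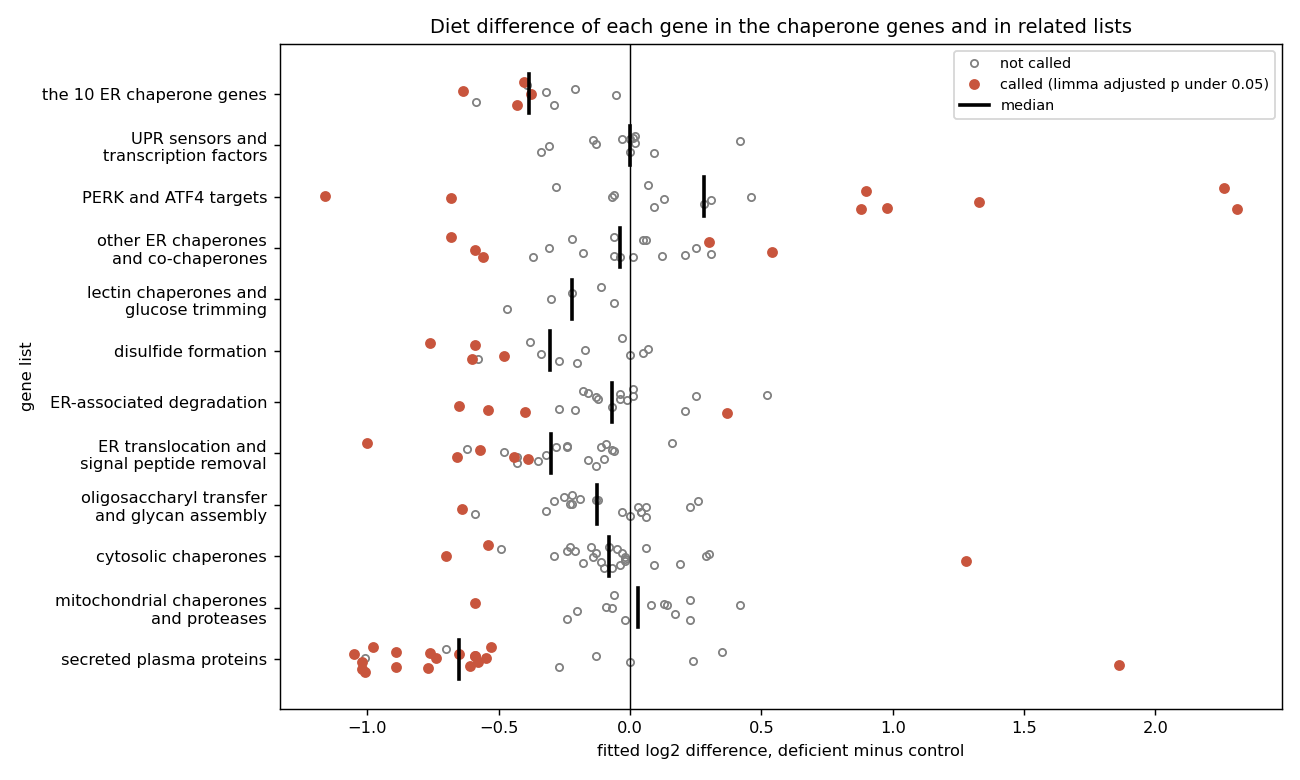
Fitted log2 difference, deficient minus control (horizontal axis), of every gene tested in the 10 ER chaperone genes and in 11 related lists; 1 point per gene, red where the limma adjusted p is under 0.05, and a black bar at the median. The medians are -0.38 for the 10 chaperone genes, 0.28 for targets of the PERK and ATF4 arm, -0.65 for secreted plasma proteins and near 0 for sensors and mitochondrial chaperones.

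Markers of cell types were measured beside these genes. All 10 hepatocyte markers were measured, and 4 of them fell. The summed level of a list is the log2 of its summed linear signals, so the brightest probes weigh most. For hepatocytes it ranged from 20.31 to 20.67 in controls and from 19.75 to 20.35 in deficient livers, 3 of which lay below all controls. The 4 that fell, Tf, Ttr, Ahsg and Serpina1, are also counted among the secreted plasma proteins above. At an unadjusted p under 0.05 in limma 6 markers were lower and 2 higher, Tat (0.92 ± 0.40) and Apoa1 (0.35 ± 0.15). Hnf4a was at -0.16 ± 0.10. In bulk tissue fewer cells of a type and less RNA per cell cannot be told apart. Of the markers of pancreatic acinar cells, which are rich in ER, 3 of 16 with a probe were measured, at a summed level of 10.17 to 10.65 in controls and 9.83 to 10.46 in deficient livers, and of those of plasma and B cells 2 of 9, at 13.62 to 14.52 and 13.59 to 14.15. Kupffer cell markers (11 of 12, 15.19 to 15.87 and 15.07 to 15.77), stellate cell markers (12 of 13, 16.01 to 16.50 and 15.73 to 16.60) and erythroid markers (7 of 11, 18.34 to 19.24 and 17.47 to 18.90) overlapped between the groups. The neutrophil sums did not overlap, at 11.14 to 11.99 in controls and 10.43 to 11 in deficient livers (6 of 11 measured, 5 fell). Those of skeletal muscle did not either, at 10.40 to 10.85 and 11.22 to 13.54 (6 of 16 measured), with deficient animal 3 at the top. Only 1 of the 6 muscle genes, Tnnc2, was apart between the groups, and it rose. Myl11, for example, was 11.65 in deficient animal 3. It was 6.86, 7.12 and 7.78 in deficient animals 1, 2 and 4, against 6.89 to 8.21 in controls. The part of these shifts in the lower chaperone levels was not tested.

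The probes lie, in the rn4 coordinates of the files, on chromosome 3 from 13787739 to 13787798 for Hspa5, chromosome 11 from 80360981 to 80361040 for Dnajb11, chromosome 8 from 112111548 to 112111607 for Manf and chromosome 14 from 86156913 to 86156972 for Xbp1. Those of Sdf2l1 lie on chromosome 11 from 85880276 to 85880335 (brighter) and from 85879929 to 85879988, that of Dnajc3 on chromosome 15 from 103915093 to 103915152, that of Dnajb9 on chromosome 6 from 63583604 to 63583663 and that of Hyou1 on chromosome 8 from 47358785 to 47358844. The 60 bases of the Hsp90b1 probe span 150 genomic bases on chromosome 7 from 23334474 to 23334623, and those of the Pdia4 probe span 1509 on chromosome 4 from 75929978 to 75931486, so both cross a gap in the genomic alignment. Exon and UTR annotation of this build was not used here.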

How the data were processed

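Each deposited file holds the spot intensities of 1 Agilent 2-colour array, whose image was read by Agilent Feature Extraction (version 10.7.1.1 per the file headers). Files of 2 samples were identical, which placed 8 samples on 4 arrays, and each sample's values were read from its own dye. A second table deposited by the authors, of normalized intensity with no method stated, served as an alternative. Median spot signals were 153 to 299 over backgrounds of 33 to 58, 59.1% to 65.5% of spots were well above background. With 4 arrays, precision is limited.

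With limma 3.58.1 in R 4.3.3, 74 spot values with a local background over 5 times the channel median were left out, and the rest were corrected by normexp (offset 50), loess within arrays and Aquantile between them. Outlier spots were dropped, spots of a probe averaged, probes kept if well above background in 4 of 8 samples, and the brightest probe taken for a gene. Diet and dye were fitted with the array as a block (correlation 0.422). Adjustment was by Benjamini-Hochberg over all genes, with a threshold of 0.05. The pairing of animals comes from the arrays. The fit was tested on simulated data. The genes and lists were chosen with earlier results of these data known. Named are the 10 genes, the 4 lowest p-values of a list at most, and the 6 genes most correlated with Hspa5; other names were added after their values were seen.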

Additional observations from a re-analysis of the deposited data

How the results depend on the processing

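With 4 chaperone genes, 19 other ER genes and 1658 genes in all called, the counts moved as follows. With the array not in the fit (no replicate block) they were 0, 1 and 399, and when the ratio of each array was fitted instead 0, 0 and 453. With sex in the fit they were 2, 5 and 811, and in females only 0, 0 and 50. Without array 3 they were 0, 0 and 212. Without array 2, 5 other ER genes and 907 genes in all were called, and without array 4, 2874 genes. From Agilent's processed signals the counts were 2 chaperones and 11 other ER genes, and with spots in very high local background kept 9 other ER genes and 954 genes. With 1 animal left out the ranges were 0 to 6, 0 to 33 and 385 to 3548. The cause was not tested. Keeping the spots marked as outliers, an alternative chosen after seeing the data, cost Xbp1 its call. None of the 10 genes changed sign while called. Hsp90b1 was above 0 in 1 of 24 alternatives and Pdia4 in 4, without a call.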

Other observations

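Of all 27457 promoter windows, 36 held ERSE or ERSE-II, 6 of them of the 10 chaperone genes. This group was formed after values had been seen. Of the other 30 genes 19 were tested for diet, with a median of -0.11 and 11 below 0. Creld2 (-0.59 ± 0.15), Ero1b (-0.48 ± 0.08) and Rcl1 (-0.51 ± 0.07) fell, and Ppm1l, a phosphatase of the ER membrane, rose by 0.50 ± 0.11. Creld2 encodes a stress-induced ER protein and Ero1b an oxidase that recharges disulfide isomerases. Calr, the lectin chaperone calreticulin, was at -0.47 ± 0.15 (limma adjusted p = 0.0862) and Canx at -0.11 ± 0.10. Herpud1, of ER-associated degradation, had an ERSE-II like Dnajb11 and Hyou1 but was at 0.52 ± 0.21 (limma adjusted p = 0.176).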
